A study of Homo sapiens with 12 samples.

Results

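A set of 10 genes of mitochondrial protein quality control was examined among the 20263 genes measured by RNA-seq in the human melanoma cell line A375. The genes were chosen by name, with earlier results of these data known. They are the stress relay pair OMA1 and DELE1, the proteases YME1L1, LONP1, CLPP and AFG3L2, and the chaperones HSPD1, HSPE1, HSPA9 and DNAJA3. DELE1 was found under its older symbol KIAA0141, and all 10 passed the filter on low counts that left 14287 genes for testing. The cells carried the label WT for genotype and formed 4 groups of 3 samples, untreated (Ctrl), treated with the compound DdBIC (dodecyl 1H-benzo[d]imidazole-5-carboxylate, written DBIC in the labels and from here on), treated with hemin (a soluble form of heme), and treated with both (DBIC+Hemin). The groups address which expression changes the compound causes and which of these differ when heme is supplied. Dose and duration of the treatments sequenced are not given in the sources used here. A single line was sequenced, the labels do not say that the 3 samples of a group came from separate cultures, and the p-values therefore measure the spread between these samples, which may be technical. A total of 37951275 to 44358912 reads were counted on genes in each library.

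Mitochondria import most of their proteins unfolded and keep their own proteases and chaperones to fold or remove them. OMA1, an inner membrane protease that is activated by membrane stress, cleaves the fusion protein OPA1 and the relay protein DELE1. Cleaved DELE1 leaves the mitochondrion and binds the heme-regulated kinase EIF2AK1 (HRI), which phosphorylates eIF2alpha and so turns on the integrated stress response and its transcription factor ATF4. In the matrix, HSPA9 (mortalin) pulls proteins through the import channel and folds them with its J-domain partner DNAJA3, while HSPD1 (HSP60) and its lid HSPE1 (HSP10) form a folding chamber. LONP1 and CLPP degrade damaged matrix proteins, and YME1L1 and AFG3L2 are the catalytic subunits of membrane-bound proteases that face opposite sides of the inner membrane. The relay is controlled by cleavage and oxidation of proteins, which RNA levels do not measure.

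The upstream sequences of some members are shown because HSPD1 and HSPE1, the pair that fell with the compound, are transcribed away from a common stretch. Upstream sequences were taken from a table of RefSeq starts (GRCh38.p14) that holds 8 of the 10 genes, and those of YME1L1 and CLPP were not analysed here. HSPE1 lies on the plus strand of chromosome 2 and HSPD1 on the minus strand, and their nearest RefSeq starts are 105 bases apart. The 250 bases before the HSPE1 start (chr2:197500129-197500378, plus strand) and those before this HSPD1 start (chr2:197500275-197500524, minus strand) have 104 bases in common. A second HSPD1 start has its own window (chr2:197499841-197500090, minus strand). For comparison, the window of DNAJA3 (chr16:4425618-4425867, plus strand), a window of LONP1 (chr19:5720453-5720702, minus strand) and that of OMA1 (chr1:58546727-58546976, minus strand) are given. Each is written 5′ to 3′ with the matches to the motifs named below in capitals.
HSPE1: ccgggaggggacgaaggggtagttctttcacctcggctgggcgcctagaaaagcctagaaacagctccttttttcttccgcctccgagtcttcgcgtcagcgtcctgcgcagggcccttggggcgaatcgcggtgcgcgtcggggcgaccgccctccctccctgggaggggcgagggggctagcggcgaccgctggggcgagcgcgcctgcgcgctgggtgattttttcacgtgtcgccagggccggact
HSPD1, start nearest HSPE1: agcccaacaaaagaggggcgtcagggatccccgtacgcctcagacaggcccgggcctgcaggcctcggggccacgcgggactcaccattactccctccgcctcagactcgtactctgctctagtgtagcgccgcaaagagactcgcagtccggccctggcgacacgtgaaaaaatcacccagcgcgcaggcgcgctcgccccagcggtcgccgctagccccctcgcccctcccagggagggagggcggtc
HSPD1, second start: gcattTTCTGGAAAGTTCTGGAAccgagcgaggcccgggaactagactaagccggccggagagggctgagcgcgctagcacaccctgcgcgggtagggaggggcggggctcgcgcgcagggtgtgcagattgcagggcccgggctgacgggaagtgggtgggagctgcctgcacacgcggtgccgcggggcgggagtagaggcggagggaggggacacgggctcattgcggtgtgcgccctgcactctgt
DNAJA3: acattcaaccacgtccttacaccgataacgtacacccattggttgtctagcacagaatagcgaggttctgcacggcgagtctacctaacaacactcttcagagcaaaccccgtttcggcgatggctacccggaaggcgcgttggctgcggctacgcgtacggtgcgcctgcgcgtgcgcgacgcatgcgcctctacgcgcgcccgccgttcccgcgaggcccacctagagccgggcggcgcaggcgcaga
LONP1: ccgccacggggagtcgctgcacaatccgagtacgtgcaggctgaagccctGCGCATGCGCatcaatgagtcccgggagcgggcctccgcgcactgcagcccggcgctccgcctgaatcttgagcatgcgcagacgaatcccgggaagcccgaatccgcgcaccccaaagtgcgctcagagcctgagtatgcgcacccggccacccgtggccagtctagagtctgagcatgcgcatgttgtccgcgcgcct
OMA1: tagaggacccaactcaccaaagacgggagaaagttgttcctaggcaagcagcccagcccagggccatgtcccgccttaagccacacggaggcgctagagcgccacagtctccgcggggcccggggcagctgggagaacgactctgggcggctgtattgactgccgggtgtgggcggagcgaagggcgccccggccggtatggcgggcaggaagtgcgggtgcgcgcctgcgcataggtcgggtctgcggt

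The window of the second HSPD1 start held near its 5′ end an 18-base run, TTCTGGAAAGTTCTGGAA, at chr2:197500068-197500085. This run holds overlapping matches to the heat shock element, the binding pattern of heat shock factors, and lies 294 bases before the RefSeq start of HSPE1 used here. The deposited table places the starts of both genes further upstream, so that the run lies inside the annotated spans of HSPE1 and HSPD1 given with the positions of the members. It was searched on both strands as GAANNTTC, TTCNNGAA and as 3 such units in a row, in either phase, and of 34943 promoter windows of the same length 5.8%, 6.62% and, for either 3-unit form, 0.441% held a match. The LONP1 window shown, 1 of 2 for this gene, held a match, in capitals above, to the pattern of the respiratory gene activator NRF1, found in 1.02% of windows, and the other LONP1 window (chr19:5720147-5720396, minus strand) held none of the patterns searched. The other patterns searched were the C/EBP-ATF response element TGATGNAA (3.15% of windows), the cAMP response element TGACGTCA (1.63%), the AP-1 site TGANTCA (6.59%) and the antioxidant response element core TGACNNNGC (10.9%). None of these had a match in the windows of the 8 members, which says only that these letters are not in these windows.

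The 10 genes differed widely in level and little between treatments. On the deposited TPM scale, which accounts for gene length, HSPD1 was the highest in Ctrl at 659 ± 14.9 TPM (SD, n = 3), followed by HSPA9 at 564 ± 29.4, HSPE1 at 409 ± 2.24, LONP1 at 240 ± 8.36 and CLPP at 212 ± 4.67. YME1L1 (95.1 ± 2.20 TPM), AFG3L2 (82.7 ± 1.85) and DNAJA3 (79.5 ± 0.830) formed a middle group. The relay genes were the lowest, DELE1 at 40.4 ± 3.12 TPM and OMA1 at 17.2 ± 0.847. No neighbours in this order had overlapping Ctrl libraries, although AFG3L2 was only 1.04 times DNAJA3. HSPD1 stood at the 98.7th percentile of the tested genes and OMA1 at the 50.0th. With DBIC the means of HSPA9 (601 ± 46.0 TPM) and HSPD1 (594 ± 24.4) changed places, with a difference smaller than the SD of either, and with hemin DNAJA3 (84.0 ± 2.21) stood above AFG3L2 (82.6 ± 1.64), again by less than the SD of DNAJA3.

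**Figure D1:**
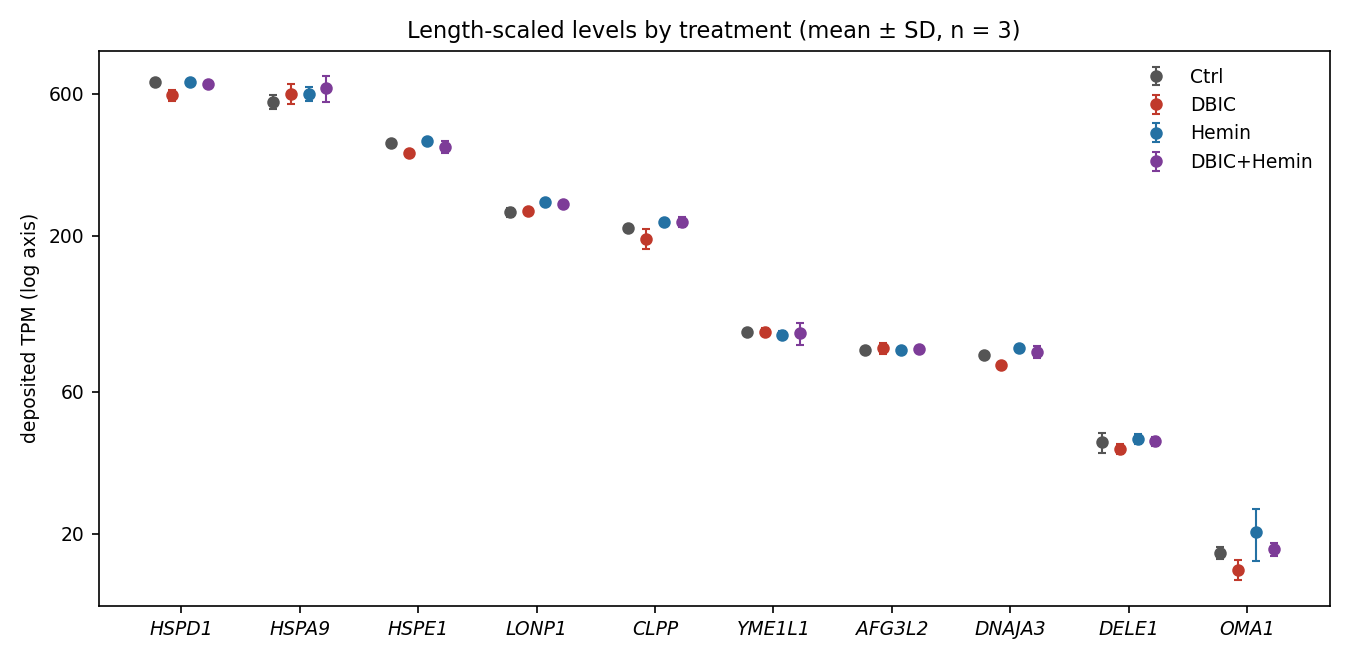
Length-scaled level (TPM, log axis) of the 10 genes in each treatment, with points for the mean and bars for the SD over 3 libraries. The levels run from 659 TPM for HSPD1 to 17.2 TPM for OMA1 in Ctrl, and the treatments of one gene lie close together.

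With the compound alone, the matrix folding pair HSPD1 and HSPE1 fell. HSPD1 fell by 10.01% and HSPE1 fell by 7.34%, and DNAJA3 was at the threshold of the test. OMA1 and DELE1 did not pass it, nor did any of the 4 proteases or HSPA9. When hemin was added to the compound, HSPD1, HSPE1, DNAJA3, LONP1 and CLPP rose by 7.27% to 14.7% against DBIC alone. In DBIC against Ctrl, 3 of the 10 genes were called, all lower, at an adjusted p under 0.05 (edgeR's quasi-likelihood test with Benjamini-Hochberg adjustment over the 14287 genes), where 37.2% of all tested genes were called and 17.2% were called lower. When hemin was added to DBIC, 5 of the 10 were called, all higher, against 31.9% of all genes called and 13.5% called higher. The same 5 had libraries that did not overlap, all higher, as had 44.2% of all genes in either direction and 19.8% higher. No test of these counts against the background was run, and nothing particular to the members is read from them. The changes of the members were small for these libraries, with a median absolute log2 fold change over the members of 0.086 in DBIC against Ctrl and 0.12 in DBIC+Hemin against DBIC, where the medians over all tested genes were 0.21 and 0.18. Because both comparisons use the DBIC libraries, a high or low value there enters both with opposite sign.

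**Figure D2:**
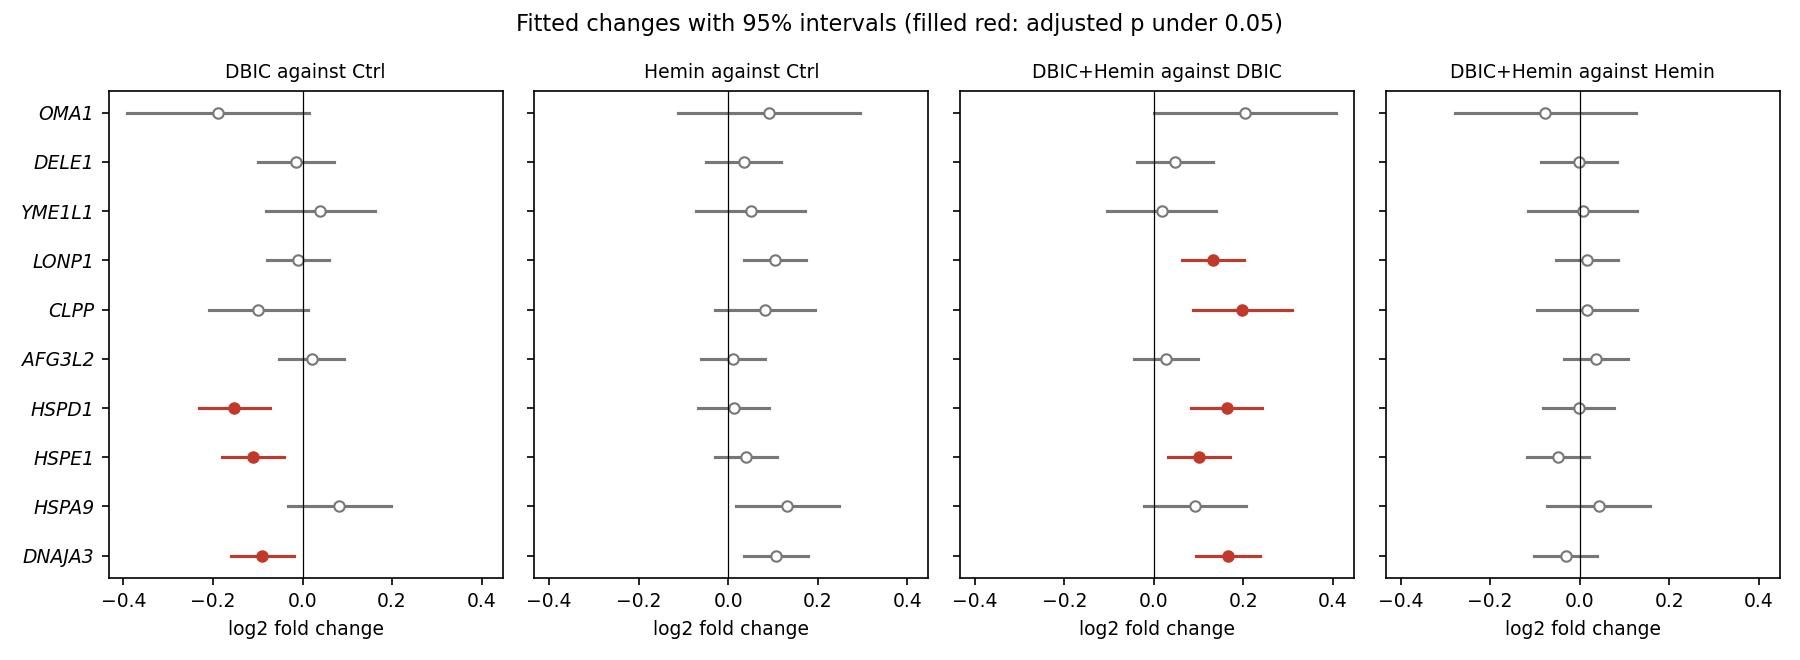
Log2 fold change of each gene with its 95% interval in 4 comparisons, filled red where the adjusted p was under 0.05. Filled points stand below 0 for HSPD1, HSPE1 and DNAJA3 in DBIC against Ctrl and above 0 for LONP1, CLPP, HSPD1, HSPE1 and DNAJA3 in DBIC+Hemin against DBIC.

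OMA1, the protease that starts the relay, was at 13.47, 13.25 and 13.56 CPM (the count scaled by depth and edgeR's TMM factors) in the Ctrl libraries and at 10.99, 12.74 and 11.58 CPM with DBIC. All DBIC libraries were below all Ctrl libraries, yet the log2 difference of −0.19 (SE 0.092) had an adjusted p of 0.134. Non-overlap of this kind was met by 4 of the 10 genes (OMA1, HSPD1, HSPE1 and DNAJA3, all lower), and by 50.0% of all tested genes, with 24.1% of all genes lower. With hemin OMA1 was at 13.99, 16.15 and 12.76 CPM, and with both agents at 14.40, 13.77 and 12.52 CPM. The hemin libraries had the widest spread and overlapped those of Ctrl. Against DBIC alone, the libraries with both agents differed by 0.20 on the log2 scale (SE 0.092, adjusted p = 0.120), with an overlap. OMA1 had the fewest reads of the 10, a mean count of 478 with DBIC and 533 in Ctrl, and the widest 95% interval, from −0.39 to 0.014 in DBIC against Ctrl. Under upper-quartile normalization it passed, with an adjusted p of 0.0492 in DBIC against Ctrl and 0.0447 in DBIC+Hemin against DBIC, but that scaling shifted the median of all genes by −0.061 and 0.061 there. Relative to the median of all genes OMA1 stayed at −0.18 and 0.21 under both scalings.

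DELE1, the messenger of the relay, was at 76.31, 76.40 and 78.22 CPM in Ctrl and at 72.89, 79.96 and 75.74 CPM with DBIC. The DBIC libraries lay on both sides of the Ctrl libraries. The log2 difference was −0.015 (SE 0.038, adjusted p = 0.801), with a 95% interval from −0.099 to 0.070. DELE1 was at 79.96, 79.83 and 76.69 CPM with hemin and at 77.4, 78.4 and 80.4 CPM with both agents, and its group means spanned only 76.2 to 78.8 CPM. Over the 4 comparisons the intervals of DELE1 reached from −0.099 to 0.13.

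LONP1, the ATP-dependent protease of the matrix, was at 306, 317 and 294 CPM in Ctrl and at 314, 298 and 299 CPM with DBIC, and these groups overlapped. It was at 321, 334 and 332 CPM with hemin and at 332, 335 and 332 CPM with both agents, above every library without hemin. LONP1 rose in DBIC+Hemin against DBIC, with a log2 difference of 0.13 (SE 0.031, adjusted p = 0.00792). With limma on log2(TPM + 1) the difference was 0.083 and the adjusted p 0.0554, and the call held under the other 19 alternatives. Hemin against Ctrl gave 0.11 (SE 0.031, adjusted p = 0.0955 by edgeR's quasi-likelihood test), which did not pass.

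CLPP, the proteolytic core of the ClpXP protease, was at 103.3, 106.6 and 103.4 CPM in Ctrl and at 96.6, 105.4 and 90.6 CPM with DBIC. The DBIC libraries were spread widely and overlapped Ctrl, with a log2 difference of −0.099 (SE 0.050, adjusted p = 0.154). CLPP was at 108.9, 112.1 and 110.8 CPM with hemin and at 108.3, 110.2 and 117.0 CPM with both, so that, as for LONP1, all 6 libraries with hemin were above all 6 without it. The share of all tested genes with this pattern was not counted, so nothing particular to LONP1, CLPP or DNAJA3 is read from it. CLPP rose by 0.20 on the log2 scale in DBIC+Hemin against DBIC (SE 0.050, adjusted p = 0.0115), the largest rise among the members called in that comparison. In DBIC against Ctrl it passed, as lower, under 2 of the 20 alternatives, with an adjusted p of 0.0286 under upper-quartile normalization, which lowers all genes by the shift given for OMA1, and 0.0143 without DBIC replicate 2. With a library left out the difference ran from −0.16 without DBIC replicate 2 to −0.052 without DBIC replicate 3.

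The membrane-bound proteases YME1L1 and AFG3L2 were called in none of the comparisons, nor under any of the alternatives. YME1L1, whose active site faces the intermembrane space, ranged over 158.6 to 163.9 CPM in Ctrl, 159.2 to 174.2 with DBIC, 161.3 to 170.8 with hemin and 158.1 to 183.8 with both. AFG3L2, whose active site faces the matrix, ranged over 126.0 to 130.5 CPM in Ctrl, 124.5 to 133.7 with DBIC, 126.0 to 130.8 with hemin and 129.5 to 134.7 with both. Neither gene had a pair of groups without overlap among the 4 comparisons. Their log2 differences in DBIC against Ctrl were 0.040 for YME1L1 (SE 0.055, adjusted p = 0.617) and 0.020 for AFG3L2 (SE 0.033, adjusted p = 0.667). Both turned negative with upper-quartile normalization through its shift of all genes, and relative to the median of all genes they were 0.048 and 0.029 under both scalings.

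**Figure D3:**
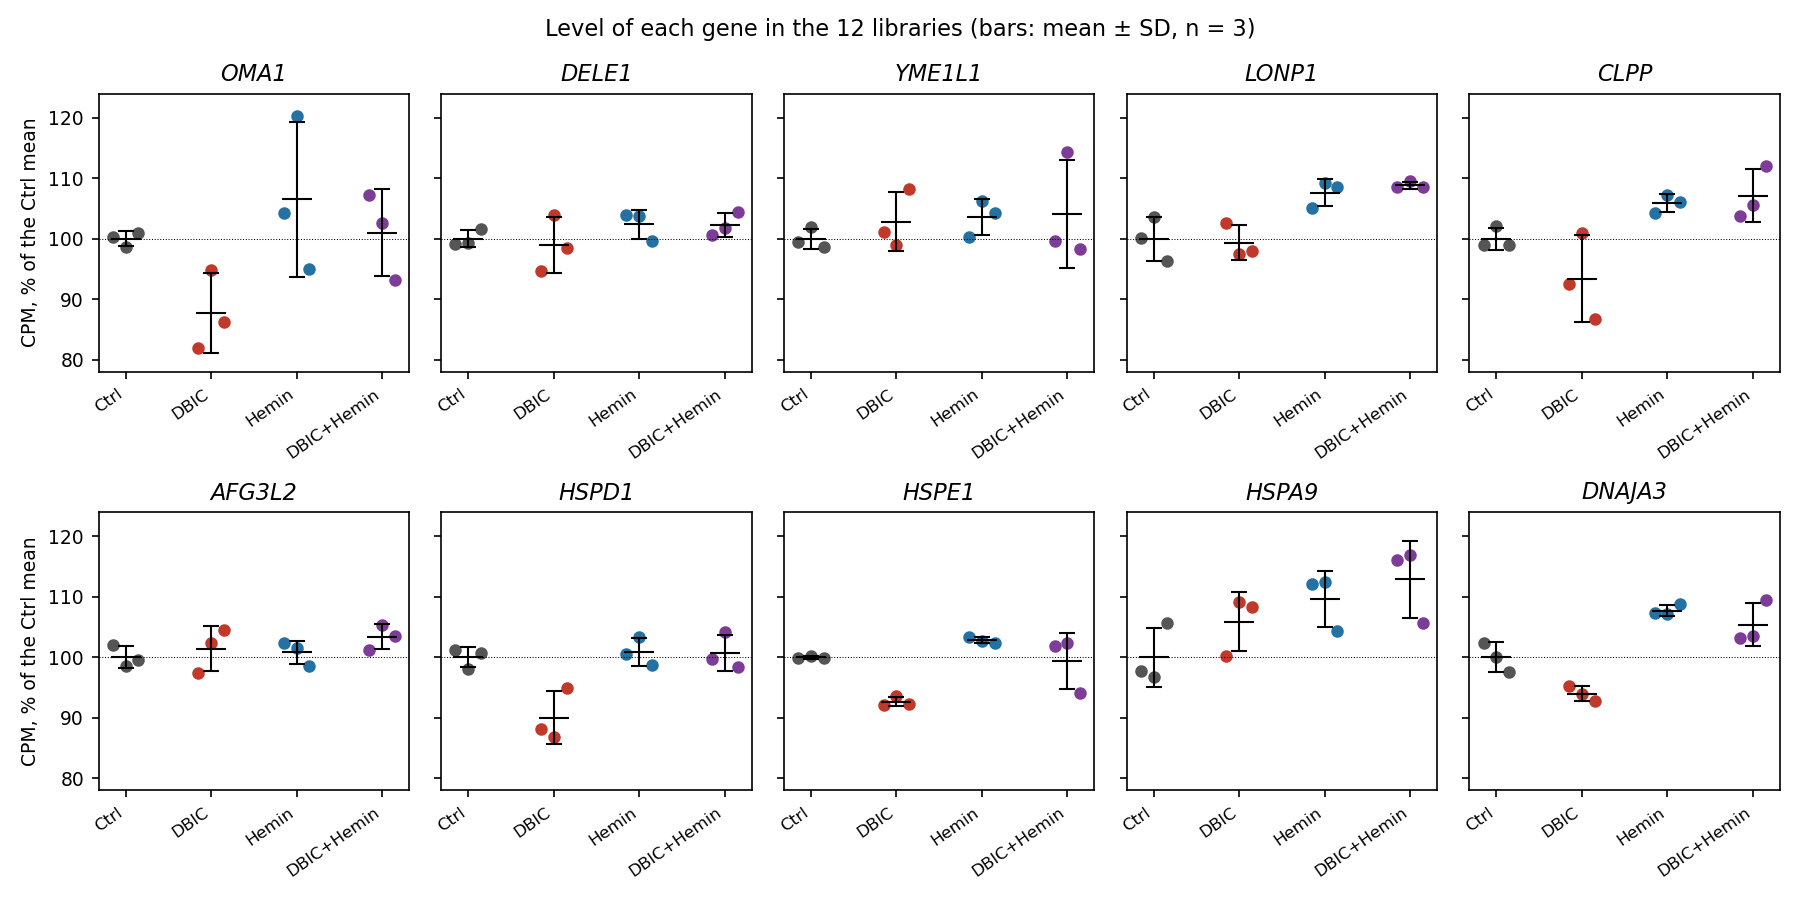
Level of each gene in the 12 libraries as a percentage of its mean CPM in Ctrl, with bars for the mean and SD of 3 libraries and a dotted line at 100%. HSPD1 stood at a mean of 89.99% and HSPE1 at 92.7% with DBIC, and at 100.7% and 99.4% with both agents.

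HSPD1, the folding chamber, was at 707, 685 and 703 CPM in the Ctrl libraries and at 616, 606 and 663 CPM with DBIC. Every DBIC library was below every Ctrl library. It fell by 0.15 on the log2 scale (SE 0.036, adjusted p = 0.00632, lower in 3 of 3 libraries). With hemin HSPD1 was at 702, 721 and 690 CPM, and with both agents at 696, 727 and 687 CPM. The 3 groups other than DBIC thus overlapped one another and stood above it. The rise in DBIC+Hemin against DBIC was 0.16 (SE 0.036, adjusted p = 0.00527). HSPD1 passed in both comparisons under each of the 20 alternatives.

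HSPE1, the lid of the chamber, was at 183.7, 184.5 and 183.8 CPM in Ctrl and at 169.6, 172.1 and 169.8 CPM with DBIC. These groups were narrow and apart, and HSPE1 fell by 0.11 on the log2 scale (SE 0.031, adjusted p = 0.0170). Without DBIC replicate 1 the adjusted p was 0.0519. With hemin it was at 190.1, 189.0 and 188.5 CPM. With both agents it was at 187.5, 188.3 and 173.0 CPM, where 1 library stood near the DBIC group. HSPE1 rose by 0.10 in DBIC+Hemin against DBIC (SE 0.031, adjusted p = 0.0291), and this call was lost under 6 of the 20 alternatives, with an adjusted p of up to 0.126.

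HSPA9, the import motor and matrix HSP70, ranged over 675 to 737 CPM in Ctrl, 700 to 762 with DBIC, 728 to 785 with hemin and 737 to 817 with both. Its mean was highest with both agents, at 788 ± 44.1 CPM (SD, n = 3). The groups overlapped in each of the 4 comparisons. Its log2 difference was 0.082 in DBIC against Ctrl (SE 0.052, adjusted p = 0.246), the opposite sign of the other chaperones, and 0.13 in Hemin against Ctrl (SE 0.052, adjusted p = 0.221 by edgeR's quasi-likelihood test). In DBIC+Hemin against DBIC the difference of HSPA9 was 0.092, which did not pass. With upper-quartile normalization, which shifts all genes as given for OMA1, it was 0.15 there and passed (adjusted p = 0.0408 by the same test).

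DNAJA3, the J-domain partner of HSPA9, was at 95.31, 93.15 and 90.70 CPM in Ctrl and at 88.65, 87.46 and 86.28 CPM with DBIC. The groups did not overlap, and the log2 difference of −0.089 (SE 0.032) had an adjusted p of 0.0499, which 16 of the 20 alternatives moved above 0.05, up to 0.161. DNAJA3 was at 99.80, 99.66 and 101.2 CPM with hemin and at 96.05, 96.27 and 101.8 CPM with both, again above every library without hemin. It rose by 0.16 in DBIC+Hemin against DBIC (SE 0.032, adjusted p = 0.00254), and this call held under all 20 alternatives.

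With hemin alone, no member passed the test. In Hemin against Ctrl, 0 of the 10 genes were called by edgeR, 0 by DESeq2 and 0 by limma at an adjusted p under 0.05. By edgeR 4.06% of all tested genes were called at that threshold. All 10 log2 differences were positive, from 0.011 to 0.13, with a median of 0.067 against 0.0026 over all tested genes. For YME1L1 and AFG3L2 the sign turned on the TPM scale. Without Hemin replicate 2 it turned for OMA1 (−0.0058) and HSPD1 (−0.0053), and without Ctrl replicate 2 for HSPD1 (−0.0012). Libraries of LONP1, CLPP, HSPE1 and DNAJA3 did not overlap, all higher, which held for 25.1% of all genes in either direction and for 12.1% higher. HMOX1, which encodes the enzyme that breaks down heme and is induced by it, served to check the labels and rose from 8.71 ± 0.632 CPM in Ctrl to 63.2 ± 2.0 CPM with hemin (SD, n = 3).

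With hemin present in both groups, no member differed detectably with the compound. Here, in DBIC+Hemin against Hemin, 0 of the 10 genes were called by edgeR, DESeq2 and limma at an adjusted p under 0.05. By edgeR 6.80% of all tested genes were called at that threshold. The log2 differences ran from −0.077 for OMA1 to 0.042 for HSPA9. For HSPD1 the difference was −0.0022, with a 95% interval from −0.081 to 0.077, and for HSPE1 it was −0.049, with an interval from −0.12 to 0.020 and values from −0.070 to −0.010 (without DBIC+Hemin replicate 3) with a library left out. That of HSPA9 ran from 0.0078 to 0.088 in the same way. For OMA1 the range was −0.15 to 0.020, the upper end without Hemin replicate 2. HSPE1 was the only member whose libraries did not overlap here, with DBIC+Hemin lower, which held for 26.3% of all genes in either direction and 13.1% lower.

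Whether the compound's effect differs with and without hemin was tested by the interaction, the log2 fold change of DBIC+Hemin against Hemin minus that of DBIC against Ctrl. By edgeR 0 of the 10 genes passed at an adjusted p under 0.05, where 16.6% of all tested genes were called. DESeq2 called 1 (HSPD1) and limma 0. The interaction of HSPD1 was 0.15 (SE 0.051, adjusted p = 0.0696 by edgeR's quasi-likelihood test), and its adjusted p ranged from 0.0121, without DBIC replicate 3, to 0.147 over the alternatives. CLPP (0.12, SE 0.071) and OMA1 (0.11, SE 0.13) had adjusted p-values of 0.328 and 0.633, and with a library left out their values ran from 0.069 to 0.18 and from 0.038 to 0.21. For DELE1 the interaction was 0.013, with a 95% interval from −0.11 to 0.13. HSPE1 gave 0.061 (SE 0.044, adjusted p = 0.411), and with a library left out it ran from 0.040 to 0.10, the latter with an adjusted p of 0.0427 without DBIC+Hemin replicate 3, the library in which it was low.

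The levels of the members were compared pairwise across the 12 libraries. As a description over libraries that share groups and normalization, Pearson's r of log2 CPM was 0.85 for CLPP and DNAJA3, 0.81 for LONP1 and DNAJA3, 0.81 for OMA1 and HSPE1 and 0.80 for HSPD1 and HSPE1. After the group means were removed these values were 0.45, 0.36, 0.50 and 0.25. Within groups 21 of the 45 pairs had a negative r, the lowest being −0.86 for HSPA9 and DNAJA3 (0.20 over all libraries), −0.75 for HSPE1 and DNAJA3 (0.65) and −0.72 for CLPP and HSPD1 (0.48). The genes whose log2 CPM was most like that of a member over the 12 libraries were SUCLG1 (r = 0.97), GYG1 and MBTPS2 for HSPD1, BAX (0.97), BRI3 and RPL17 for HSPE1, MYBL2 (0.96), EIF3CL and MT-CO2 for CLPP, and TPM3 (0.95), TTLL6 and ERP29 for LONP1. They were BRINP2 (0.96), C2orf74 and SP110 for DNAJA3, ST8SIA4 (0.90), POLR2E and SRD5A3 for OMA1, and SERPINA3 (0.88) and NKAP for DELE1. For the others they were UBLCP1 (0.88), PPP1CB and TMEM67 for YME1L1, GATA5 (0.88), WDYHV1 and PLCG2 for AFG3L2, and LRRC37A3 (0.88), TRUB1 and ZDHHC13 for HSPA9. No gene was on this list for more than 1 member. These are the highest of the correlations with all named tested genes, over only 12 libraries. How high an r such a search finds between unrelated genes was not tested, so no partners are read from the list.

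The partners and targets of the relay were described by a list of 10 genes, of which 4 were called in DBIC against Ctrl, all lower, where 37.2% of all tested genes were called and 17.2% lower, and 6 in DBIC+Hemin against DBIC, all higher, where 31.9% were called and 13.5% higher. The list had medians of −0.10 and 0.15 on the log2 scale beside −0.0082 and −0.010 over all tested genes. The scaffold genes of the inner membrane that hold the proteases fell with DBIC, PHB by 0.23 (SE 0.056, adjusted p = 0.00703), PHB2 by 0.12 (SE 0.023, adjusted p = 0.00192) and STOML2 by 0.21 (SE 0.030, adjusted p = 0.000234), as did the mitophagy kinase PINK1 by 0.22 (SE 0.040, adjusted p = 0.00110). OPA1, the fusion protein cleaved by OMA1 and YME1L1, was at −0.057 (adjusted p = 0.370) with DBIC and rose by 0.15 when hemin was added (adjusted p = 0.0321). The kinase gene EIF2AK1 was at −0.084 (adjusted p = 0.0770) and rose by 0.14 when hemin was added (adjusted p = 0.00756).

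The relay can turn on the integrated stress response, as can stress signals that act through other eIF2alpha kinases. Of 15 genes of this response, 10 were called higher and 1 lower in DBIC against Ctrl, and the list median was 0.67. Of all 14287 tested genes, 37.2% were called in either direction, 2859 genes higher and 2451 lower. The transcription factor gene ATF4 rose by 0.67 (SE 0.031, adjusted p = 3.3e-08), DDIT3 (CHOP) by 3.27 (SE 0.28, adjusted p = 1.78e-05), the mTORC1 inhibitors DDIT4 by 2.33 (SE 0.054) and SESN2 by 2.25 (SE 0.060), and the secreted stress signal GDF15 by 1.38 (SE 0.12). Hemin alone raised part of this list too, with 8 of the 15 called in Hemin against Ctrl, all higher, and a list median of 0.29. By comparison, 4.06% of all tested genes were called there. When hemin was added to DBIC, 7 of the 15 were called lower and 6 higher, where 31.9% of all genes were called, 2626 lower and 1933 higher. The 6 called higher are not among the genes named here, which were chosen by their p in DBIC against Ctrl or named in advance. DDIT3 changed by −2.35 there, DDIT4 by −1.46, SESN2 by −1.04 and ATF4 by −0.25, each with an adjusted p under 0.05, while GDF15 was at 0.17 (adjusted p = 0.318). ATF5, the transcription factor tied to the mitochondrial unfolded protein response, was at 0.013 with DBIC (adjusted p = 0.874) and changed by −0.64 when hemin was added (SE 0.054, adjusted p = 6.94e-06).

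The wider quality control machinery was mixed. Among 15 other mitochondrial proteases, 3 were called in DBIC against Ctrl, all lower, where 17.2% of all tested genes were called lower. They were the intermediate peptidase MIPEP at −0.23 (adjusted p = 0.00671), the processing peptidase subunit PMPCA at −0.10 (adjusted p = 0.0115) and ATP23 at −0.35 (adjusted p = 0.0160), while METAP1D was at −0.29 (adjusted p = 0.0775). Of 11 other chaperones and cochaperones, 3 were called higher and 1 lower, beside 37.2% of all genes in either direction. These 4 of 11 are near that share, and nothing particular to the list is read from the count. GRPEL2, a nucleotide exchange factor of HSPA9, rose by 1.21 (SE 0.061, adjusted p = 7.03e-08) and changed by −0.76 when hemin was added (adjusted p = 4.01e-06). Its paralog GRPEL1 rose by 0.091 (adjusted p = 0.0268) and TIMM44, which tethers HSPA9 to the import channel, by 0.23 (adjusted p = 0.000426). TRAP1, the mitochondrial HSP90, fell by 0.26 (adjusted p = 0.00151) and rose by 0.25 when hemin was added (adjusted p = 0.00236). Of 18 import genes, 3 were called lower with DBIC, again beside 17.2% of all genes, TOMM22 at −0.20 (adjusted p = 0.00259), TIMM21 at −0.25 (adjusted p = 0.00517) and TIMM50 at −0.14 (adjusted p = 0.0370), while the receptor gene TOMM70 was at 0.087 (adjusted p = 0.0571).

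**Figure D4:**
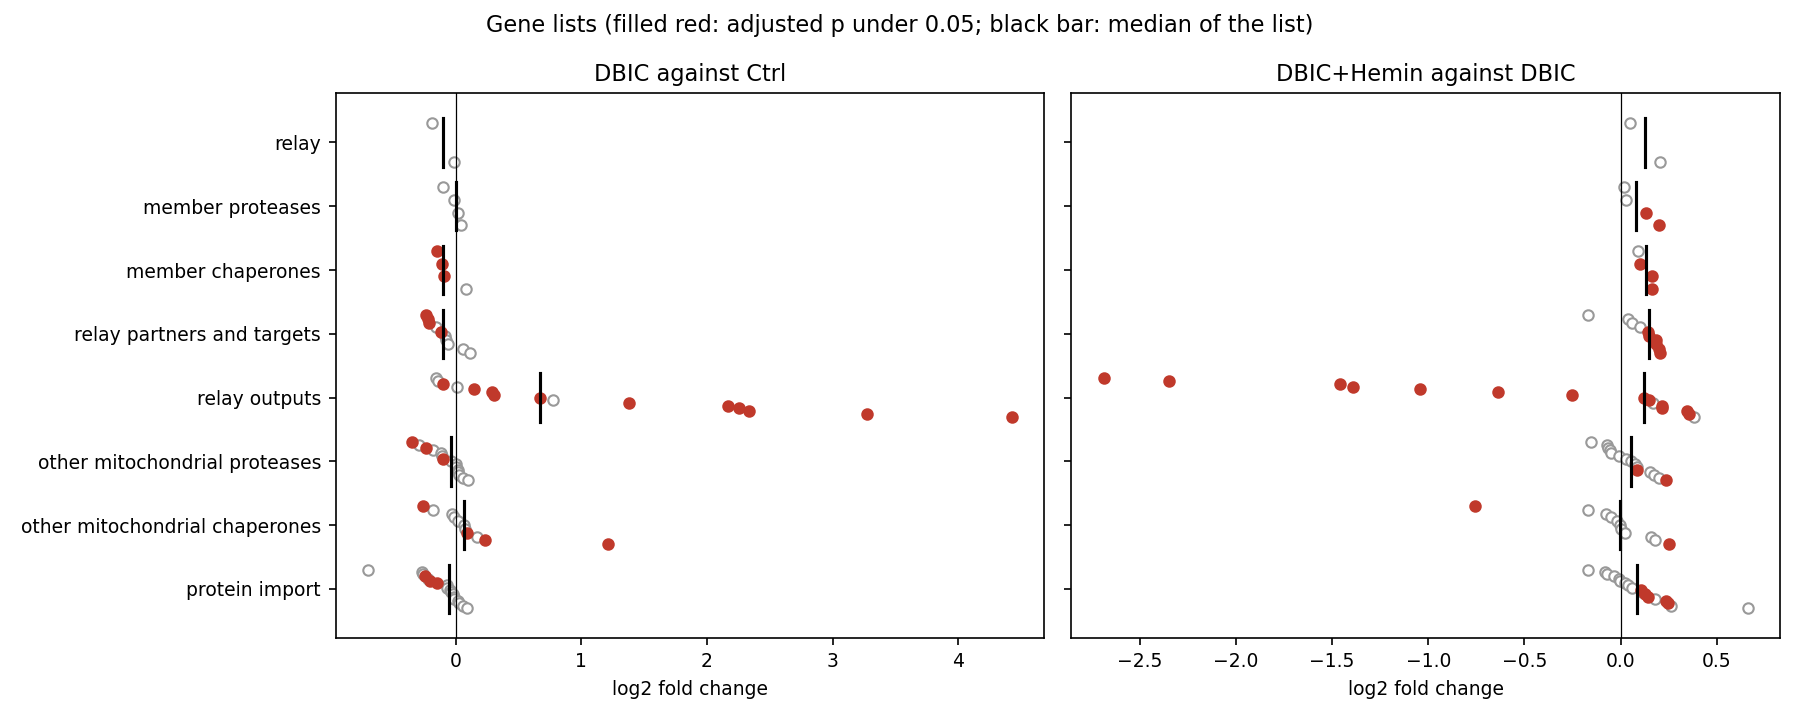
Log2 fold change of every tested gene of each list in DBIC against Ctrl and in DBIC+Hemin against DBIC, filled red where the adjusted p was under 0.05, with a black bar at the list median. The stress response genes reach 4.42 with DBIC, whereas the 10 members stay between −0.19 and 0.082.

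All 10 members are protein-coding in GENCODE 29, on GRCh38, as are the positions in the deposited table. YME1L1 lies at chr10:27110112-27155266 (minus strand), AFG3L2 at chr18:12328944-12377314 (minus), HSPA9 at chr5:138554882-138575444 (minus), OMA1 at chr1:58467927-58546802 (minus), DELE1 at chr5:141923808-141942047 (plus), HSPD1 at chr2:197486581-197516737 (minus), HSPE1 at chr2:197499994-197503457 (plus), LONP1 at chr19:5691834-5720572 (minus), CLPP at chr19:6361452-6368908 (plus) and DNAJA3 at chr16:4425805-4456775 (plus). HSPE1 shares 14.2% of its exonic bases with HSPD1 on the other strand and 9.71% with the readthrough gene HSPE1-MOB4 on its own, and HSPD1 shares 6.62% with HSPE1. AFG3L2 shares 12.6% with TUBB6 on the other strand, YME1L1 6.04% with MASTL on the other strand and OMA1 6.91% with DAB1 on its own. GENCODE names 17 pseudogenes of HSPD1 and 26 of HSPE1. How the counting treated strand and reads with several matches is not given in the sources used here, so the levels of these genes may include reads of their neighbours or copies. The readthrough gene had a mean count of 65.3 beside 7316 for HSPE1.

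The label of the line was checked against its lineage markers. SOX10, a defining factor of the melanocyte lineage, was at 548 to 769 CPM, MITF at 8.31 to 21.5 and S100B at 6.59 to 12.7, whereas the pigment genes PMEL, MLANA, TYR, DCT and TYRP1 were at or below 1.11 CPM. The summed level of the 8 melanocyte markers was 736 to 797 CPM with DBIC and 643 to 670 in Ctrl, 571 to 578 with hemin and 577 to 667 with both. Since SOX10 makes up most of this sum, it is in effect the level of 1 gene, and it was higher with DBIC, where HSPD1 and HSPE1 were lower. The sum of 4 keratinocyte markers, mostly KRT10, was 59.0 to 66.1 CPM with DBIC, 53.1 to 56.3 in Ctrl and 50.1 to 57.9 with both agents, with KRT1 at 0 in every library. That of 4 fibroblast markers, mostly LUM, was 9.64 to 10.6 CPM with DBIC, 12.1 to 13.2 in Ctrl and 11.7 to 12.2 with both, and so was lower with DBIC as HSPD1 and HSPE1 were. The sum of 4 leukocyte markers, nearly all CD68, was 20.2 to 26.9 CPM with DBIC, 26.97 to 27.5 in Ctrl and 27.5 to 29.7 with both, also lower with DBIC but nearly touching Ctrl, while PTPRC was at 0 in every library. With hemin alone these 3 sums were 56.8 to 62.4, 12.3 to 14.9 and 25.3 to 26.9 CPM. The part of these markers in the changes of HSPD1 and HSPE1 was not tested. All samples are labelled as a single cell line, so these sums are levels of a few genes and are not read as shares of other cell types. Within such bulk samples of a line, a change in which of its cells are present and a change in RNA per cell cannot be told apart. Replicate libraries of a group correlated across genes with r of 0.985 to 0.988, and no pair was identical.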

How the data were processed

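RNA was extracted with Trizol from A375 cells, and groups were taken from the treatment labels. The authors deposited 1 table with raw counts per gene and library. It also holds the authors' TPM values, scaled by gene length and to a common sum, and the authors' FPKM values, scaled by length and depth. The submitters' processing notes name Trim Galore, Subread, featureCounts and hg38, while versions and strand use are not given in the sources used here. TPM served for levels between genes and 1 alternative, and FPKM for a check of length only, in which the ratio of count to FPKM varied 1.26-fold between libraries for OMA1 and 1.01-fold to 1.14-fold for the others.

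Tests on the counts were run in R 4.3.3 with edgeR 4.0.16, using filterByExpr with the groups, TMM factors, a robust quasi-likelihood fit with 1 mean per group over 12 libraries (8 residual degrees of freedom) and F tests, with Benjamini-Hochberg adjustment over 14287 genes and a threshold of 0.05. Intervals are 95%. The steps were run on simulated data with planted changes larger than any of the members. That run does not show how well changes as small as those of the members are called. Per library, 3 counts, the limit that a count of 0 allows, came to under 1 CPM, a limit for counting error only. Limma 3.58.1 was run on log2(TPM + 1), and DESeq2 1.42.0 on counts. The other alternatives were upper-quartile scaling, library size only, no filter, at least 10 counts in every sample, the replicate number as a block, fits of the compared groups alone and leaving out each of the 12 libraries. Correlations used log2 CPM with a prior count of 2.

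The genes named are the 10 members, the 3 genes most like each by r (1 of them is not reported here), up to 4 genes of each further list with the lowest p in DBIC against Ctrl, and OPA1, EIF2AK1, DDIT3, ATF4, ATF5 and HMOX1. Marker genes and gene overlaps are named as checks. The members and lists were chosen with earlier results of these data known. The p-values were adjusted over all genes only, which does not correct for that choice, so the counts per list are descriptions. Promoter windows of 250 bases came from RefSeq. Python 3.11.15 with pandas 2.3.3 and matplotlib 3.10.9 was used for sequences and figures.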

Additional observations from a re-analysis of the deposited data

Results flagged for a closer look

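No member was flagged. Among the named genes of the wider lists, the compound's effect differed with and without hemin by the interaction test of edgeR (adjusted p under 0.05) in 13 of 25 genes, which is what drew attention to them. Most of the 25 were chosen for a low p in DBIC against Ctrl, which is part of the interaction, so this count is not to be read against other genes. The DBIC effect was lower with hemin present, with log2 differences of −2.87 for DDIT3, −1.80 for SESN2, −1.66 for DDIT4, −1.02 for GRPEL2, −0.62 for ATF5, −0.40 for ATF4 and −0.23 for TIMM44. The difference was positive for HMOX1 (1.57), PINK1 (0.36), TRAP1 (0.33), TOMM22 (0.20), STOML2 (0.15) and PHB2 (0.13). All of these but HMOX1 had fallen with DBIC alone, so there a positive difference means a smaller fall, or none, with hemin present. STOML2, for example, had a mean of 287 CPM with hemin and 275 CPM with both agents. With 3 libraries in a group, no group was large enough for a test of single libraries that stand apart.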

How the results depend on the processing

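Of the 50 log2 values of the members, tested under 8 alternatives that keep every library (7 for the interaction) and 12 that leave one out, 907 of 990 alternative values kept their sign and their side of the threshold. The cause was not tested for any value that did not, beyond what the alternative itself leaves out. The number of members called in DBIC against Ctrl was 3, and 5 with upper-quartile normalization, 2 with DESeq2, and 1 to 3 when a library was left out (1 without DBIC replicate 1). In DBIC+Hemin against DBIC it was 5, and 3 with limma on log2(TPM + 1), 7 with upper-quartile normalization and 4 to 5 with a library left out. The count over all genes moved as well, in DBIC against Ctrl from 2451 lower calls to 3472 and in DBIC+Hemin against DBIC from 1933 higher calls to 2948 with upper-quartile normalization and to 1103 with limma, so these changes cannot be read for the members alone. In the interaction it was 0, and 1 with DESeq2, 1 with upper-quartile normalization and 0 to 1 with a library left out (1 without DBIC replicate 3 or DBIC+Hemin replicate 3).

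With the replicate number as a block, 2 members were called in DBIC against Ctrl, 5 in DBIC+Hemin against DBIC and 0 in the other 3 comparisons. The shared number did not pair the samples, since deviations of same-numbered samples from their group means correlated at −0.046 to 0.081.

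Over all genes, upper-quartile normalization shifted the median by −0.061 in DBIC against Ctrl and by 0.061 in DBIC+Hemin against DBIC. It took the share of higher calls from 53.8% to 39.95% in DBIC against Ctrl, from 42.4% to 59.2% in DBIC+Hemin against DBIC and from 38.5% to 55.4% in the interaction, and library size only took it from 54.6% to 42.3% in DBIC+Hemin against Hemin. The number of genes called in Hemin against Ctrl was 580, and 881 with DESeq2, 322 with limma on TPM and 272 to 623 with a library left out. In DBIC+Hemin against Hemin it was 971, and 569 with only the groups compared and 612 to 934 with a library left out.

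The sign turned in 21 of the 50 values, none of them called, with a main value of at most 0.091 in size. With upper-quartile normalization YME1L1 became −0.022 and AFG3L2 −0.041 in DBIC against Ctrl, YME1L1 −0.0021 in DBIC+Hemin against Hemin, and YME1L1 0.020 and HSPA9 0.012 in the interaction. With library size only AFG3L2 became −0.0011 in DBIC against Ctrl, and YME1L1 −0.015, LONP1 −0.00538 and CLPP −0.0056 in DBIC+Hemin against Hemin. In that comparison DESeq2 gave DELE1 as 0.0047 and HSPD1 as 0.0040, and at least 10 counts in every sample gave DELE1 as 8.92e-05. With limma on log2(TPM + 1) LONP1 became 0.014 in DBIC against Ctrl, YME1L1 −0.031 and AFG3L2 −0.0015 in Hemin against Ctrl, YME1L1 −0.022 and AFG3L2 −0.0043 in DBIC+Hemin against DBIC, LONP1 −0.023 in DBIC+Hemin against Hemin, and YME1L1 0.00915, LONP1 −0.037 and AFG3L2 −0.0028 in the interaction.

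With a library left out, the range in DBIC against Ctrl was −0.038 to 0.016 for LONP1, −0.053 to 0.016 for DELE1, −0.0038 to 0.064 for YME1L1 and −0.0060 to 0.048 for AFG3L2. In Hemin against Ctrl it was −0.0053 to 0.027 for HSPD1 and −0.0058 to 0.17 for OMA1. For YME1L1 in DBIC+Hemin against DBIC it was −0.054 to 0.061. In DBIC+Hemin against Hemin it was −0.021 to 0.010 for DELE1, −0.066 to 0.046 for YME1L1, −0.00073 to 0.027 for LONP1, −0.15 to 0.020 for OMA1, −0.027 to 0.015 for HSPD1 and −0.018 to 0.039 for CLPP. In the interaction it was −0.016 to 0.052 for DELE1, −0.011 to 0.043 for AFG3L2, −0.10 to 0.011 for YME1L1 and −0.080 to 0.0063 for HSPA9. In DBIC+Hemin against Hemin, HSPE1 ran from −0.070 to −0.010 and HSPA9 from 0.0078 to 0.088 with a library left out, and the interaction ran from 0.038 to 0.21 for OMA1 and from 0.069 to 0.18 for CLPP. OMA1 had the fewest reads of the members and the widest 95% intervals, up to 0.20 on either side between groups and 0.29 in the interaction, and the part of depth in this was not tested.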
